A study of Mus musculus with 8 samples.

Results

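The EGF receptor family, or ErbB family, and its ligands were examined as a list of 10 genes: the receptors Egfr, Erbb2, Erbb3 and Erbb4 and the ligands Areg, Ereg, Hbegf, Tgfa, Btc and Nrg1. The list was fixed by name, and each gene was read from its probe set with the highest mean among those that name it alone. Of the 10 genes 9 were measured in this way, out of 22180 genes in all. Areg, the gene of amphiregulin, was not analysed here.

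ErbB receptors are tyrosine kinases of the cell surface that form pairs when a ligand binds, and they signal through adaptors to RAS, the MAP kinases and AKT. The ligands are made as membrane-anchored precursors and released by ADAM proteases, so one cell can stimulate itself or its neighbours. In the liver EGFR and its ligands are known for driving hepatocyte growth after injury, and the same pathway is often active in cancers of hepatocytes and of bile ducts.

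RNA came from 8 clonal mouse lines. Of these, 4 were grown from intrahepatic cholangiocarcinoma (ICC), which resembles bile duct epithelium, and the other 4 from hepatocellular carcinoma (HCC), which resembles hepatocytes. All 8 lines share the strain C57BL/6 and the same drivers, c-Myc and NrasG12V on the pCaMIN vector, and all were untreated. ICC9 and ICC10 are female and ICC2.7 and ICC2.9 male by label, while HCC2.1 and HCC2.4 are female and HCC1 and HCC4 male. Each line is 1 clone read on 1 Affymetrix array. ICC tumours followed focal electroporation in vivo and HCC tumours followed hydrodynamic injection into the tail vein, so the cancer type and the way the vector was delivered cannot be told apart. The labels do not say which lines came from one tumour or animal, so the p-values reflect the spread among these lines and nothing wider. Within each sex the types also differ in how the lines are named. Female lines are ICC9 and ICC10 against HCC2.1 and HCC2.4, and male lines ICC2.7 and ICC2.9 against HCC1 and HCC4. A type difference within a sex therefore cannot be told apart from one between these name series. Every line carries an activated Nras, which acts downstream of the ErbB receptors.

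The arrays had median log2 signals between 5.02 and 5.09, and their number limits the precision. Of 6 hepatocyte markers, Alb, Ttr, Apoa1, Cps1 and Serpina1c had mean signals below that of the median gene (5.66) and Hnf4a above it. In the HCC lines HCC2.1 and HCC2.4 Hnf4a measured 7.26 and 7.06, and in the other 6 lines 5.32 to 5.92. Sox9, Krt7 and Krt19 lay above the median gene and Epcam below it. Of the leukocyte markers Ptprc and Adgre1 lay below the median gene and Cd68 above it, and all 3 endothelial markers lay below it. The epithelial markers Cdh1, Krt8 and Krt18 lay above it. Of the fibroblast markers Pdgfrb, Col1a1 and Col1a2 lay above it and Dcn and Lum below it. Pdgfrb measured 10.55 in ICC2.7, 9.89 in ICC2.9 and 6.66 to 8.41 in the other 6 lines. Col1a1 measured 9.82 in ICC2.7, 8.19 in ICC2.9 and 6.41 to 7.18 in the other 6. None of the measured markers was called between ICC and HCC lines, where 0.261% of all genes were, and none separated the lines of the types. The labelled sex matched the data in all 8 lines: Xist measured 11.26 to 11.59 in female-labelled and 4.02 to 4.64 in male-labelled lines. The deposited values of the 8 arrays span only 7 directions. The missing one lies close to ICC9 alone (cosine 0.989, given type and sex), so little of what is particular to ICC9 is left in the values. In means, SDs and fits ICC9 still counts as a full line, so the spread among ICC lines can be understated.

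None of the 9 genes passed the test between ICC and HCC lines (limma over all genes, adjusted p under 0.05), where 58 of the 22180 genes did, which is 0.261%. An unadjusted p under 0.05 was reached by 3 of the 9, Erbb3, Tgfa and Nrg1, against 3127 of all genes (14.1%). The median difference over the 9 was 0.04 log2 units and the median size of the difference 0.12, where all genes had 0.0025 and 0.13. In 8 of the 9, all but Nrg1, the range among the 4 ICC lines was larger than the difference between the type means. With the range among the HCC lines the exception was Erbb3 (0.47 against 0.4725) and not Nrg1 (0.48 against 0.405). How many of all genes have such ranges was not counted. In a bulk RNA sample fewer expressing cells and less RNA per cell cannot be told apart. A value is a log2 signal of the gene's own probe set, so differences are read between lines and not between genes. Where a level is set beside the median gene or the share of genes below it, this gives only a rough place on the scale.

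**Figure D1:**
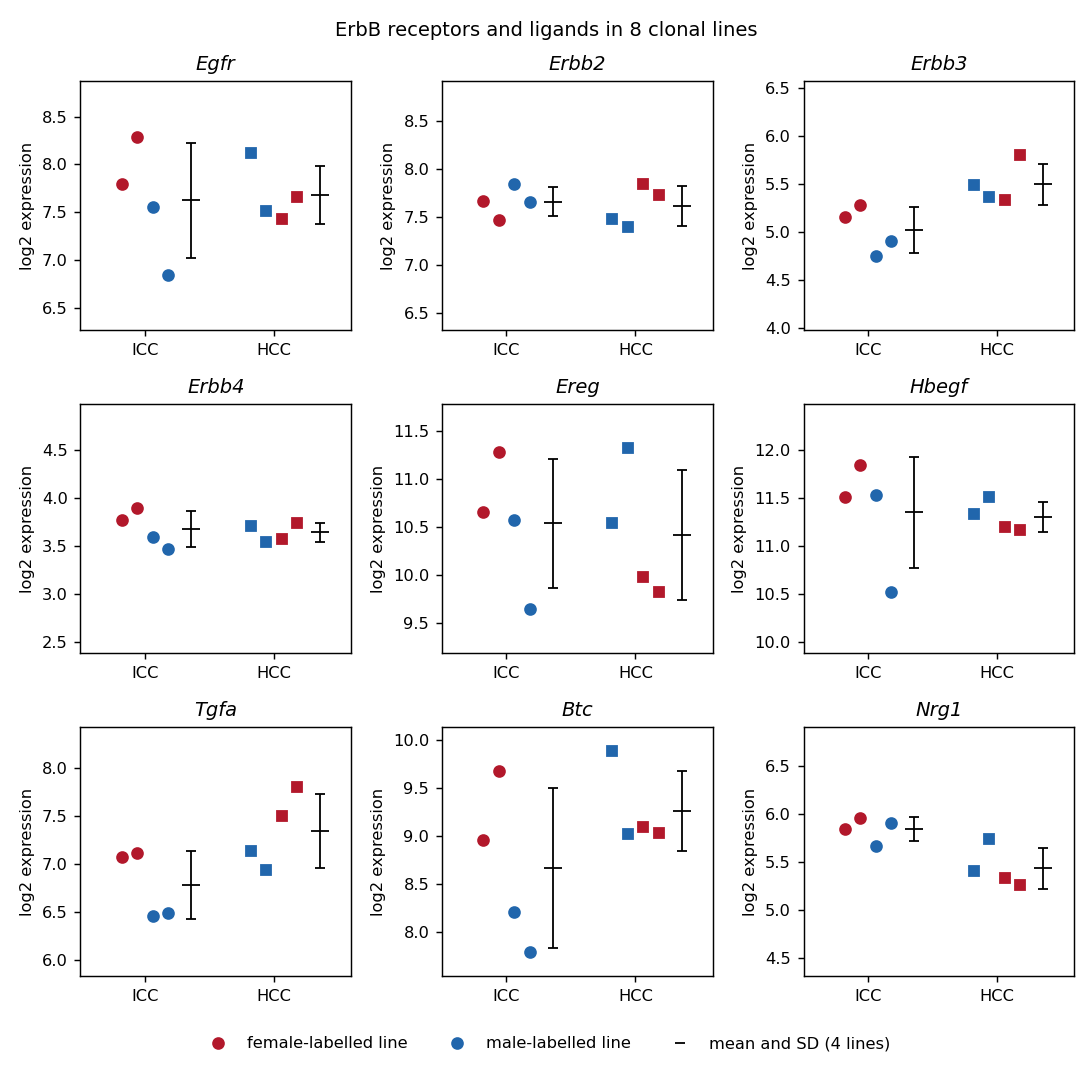
Each panel shows 1 gene; the vertical axis is log2 expression over a window of the same height in every panel, and each point is 1 clonal line, coloured by its labelled sex, with the mean and SD of the 4 lines of a type beside it. The ICC and HCC lines separate in Erbb3 alone, by 0.05, while Egfr, Ereg, Hbegf and Btc spread most within ICC.

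Egfr, the receptor of most of these ligands, measured 7.80 in ICC9, 8.29 in ICC10, 7.56 in ICC2.7 and 6.85 in ICC2.9. It measured 8.12 in HCC1, 7.52 in HCC4, 7.43 in HCC2.1 and 7.66 in HCC2.4. The highest and the lowest line were both ICC, and the 4 HCC lines lay between them. The means were 7.63 ± 0.60 in ICC and 7.68 ± 0.31 in HCC lines (SD, n = 4 each), a difference of -0.06 with a 95% interval from -0.70 to 0.59 (limma adjusted p = 0.950).

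Erbb2, which binds no known ligand and serves as the partner of the other receptors, varied little. It measured 7.66, 7.47, 7.84 and 7.65 in ICC9, ICC10, ICC2.7 and ICC2.9, and 7.48, 7.39, 7.84 and 7.73 in HCC1, HCC4, HCC2.1 and HCC2.4. The lines of both types overlapped over nearly the whole range of 0.45, and the difference was 0.04 (95% interval -0.24 to 0.33, adjusted p = 0.909). The lines with the highest Erbb2, ICC2.7 and HCC2.1 at 7.84, were not those with the highest Egfr.

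Erbb3, a receptor for neuregulins whose own kinase is weak and which depends on a partner, was the 1 member whose types did not overlap. It measured 5.16 in ICC9, 5.28 in ICC10, 4.75 in ICC2.7 and 4.91 in ICC2.9, against 5.49 in HCC1, 5.37 in HCC4, 5.33 in HCC2.1 and 5.80 in HCC2.4. The gap between the highest ICC and the lowest HCC line was 0.05, and 8.63% of all genes separated the types in this way. The HCC mean was 1.39-fold that of ICC (log2 difference -0.47, SE 0.15, 95% interval -0.81 to -0.14), and the difference did not pass over all genes (adjusted p = 0.216). It had the same sign in the female-labelled lines (-0.35) and in the male-labelled lines (-0.60). Erbb3 was dim, with 43.5% of genes at a lower mean.

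Erbb4, the other neuregulin receptor, measured 3.47 to 3.90 in ICC and 3.55 to 3.74 in HCC lines. Its mean lay above that of only 14.6% of genes, signal over background was not assessed, and its difference of 0.04 (95% interval -0.21 to 0.29) describes a gene near the bottom of the scale.

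Tgfa, the gene of TGF-alpha, a ligand of EGFR long known from liver growth, measured 7.07 in ICC9 and 7.11 in ICC10, 6.46 in ICC2.7 and 6.49 in ICC2.9, 7.14 in HCC1 and 6.94 in HCC4, and 7.50 in HCC2.1 and 7.80 in HCC2.4. The male ICC lines were lowest, the female ICC and male HCC lines overlapped in the middle, and the female HCC lines were highest. The HCC mean was 1.48-fold the ICC mean (log2 difference -0.56, SE 0.23, 95% interval -1.07 to -0.05), which did not pass over all genes (adjusted p = 0.311). The difference was nearly the same in female-labelled lines (-0.56) and in male-labelled lines (-0.57). With sex in the model the SE became smaller and the difference passed (adjusted p = 0.0293), where 428 genes were called. When the missing direction was added to sex it did not pass (adjusted p = 0.0958), and with a random block for each pair of same type and sex the adjusted p was 0.628.

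Between the sexes Tgfa was the 1 member of 9 that passed, in a comparison that called 653 genes, which is 2.94%. It was higher in female-labelled lines by 0.61 log2 units (1.53-fold, SE 0.09, 95% interval 0.40 to 0.83, limma with type in the model, adjusted p = 0.0144). The difference was 0.62 among ICC lines and 0.61 among HCC lines, and within each type the female lines lay above the male ones. Over both types the sexes overlapped, since HCC1 at 7.14 lay above ICC9 and ICC10. None of the 9 members separated the sexes over all 8 lines, as 8.76% of all genes did. The call was lost once the missing direction was added to the fit (adjusted p = 0.0516), without ICC9 (0.0841), without ICC2.7 (0.0505) and in the HCC lines on their own (0.204). Of the 4 measured bile duct markers 1 passed with sex too: Krt19, a keratin, was higher in female-labelled lines by 2.19 (adjusted p = 0.00483). Epcam differed by 0.29, Sox9 by 0.23 and Krt7 by -0.035, and none of these was called. The summed log2 signal of the 4 bile duct markers, in which Krt19 made most of the difference, ran from 30.11 to 31.83 in female-labelled and from 27.67 to 28.97 in male-labelled lines. That of the 3 epithelial markers ran from 29.52 to 31.99 in female-labelled and from 25.13 to 30.11 in male-labelled lines. For the 5 fibroblast markers it ran from 26.16 to 28.09 and from 26.23 to 33.93. Their part in the Tgfa difference was not tested.

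**Figure D2:**
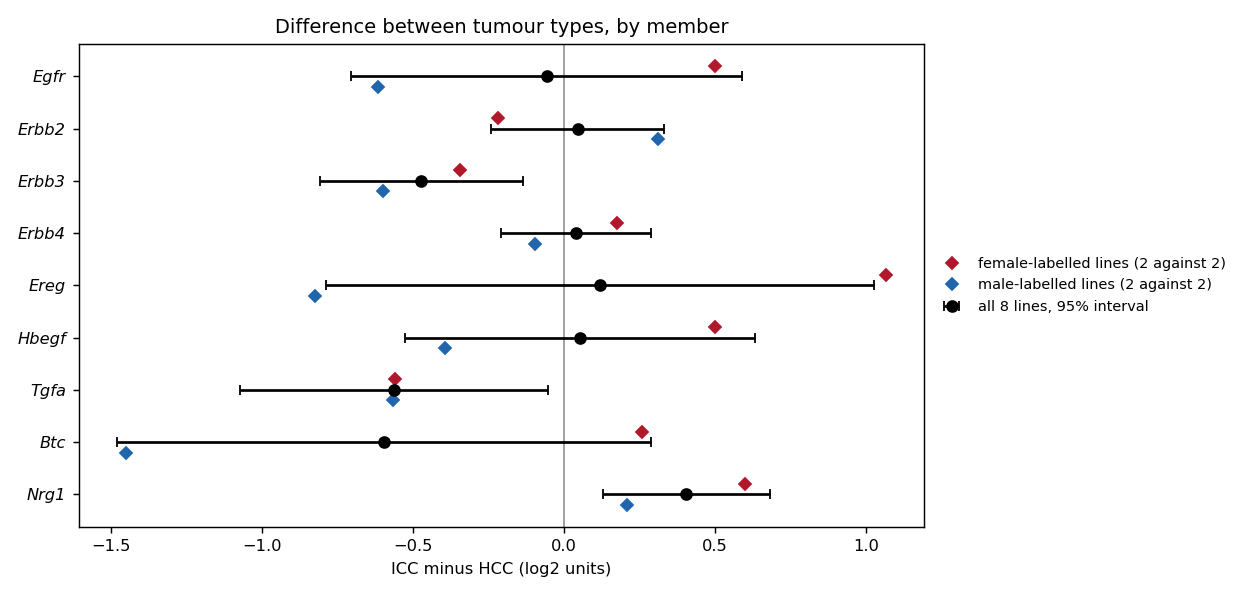
Each row is 1 gene and the horizontal axis is the mean of ICC lines minus the mean of HCC lines in log2 units; black points are all 8 lines with limma's 95% interval, and coloured diamonds are the female-labelled and the male-labelled lines, 2 against 2, with no interval. The diamonds coincide for Tgfa (-0.56 and -0.57) and lie on opposite sides of 0 for Egfr, Erbb2, Erbb4, Ereg, Hbegf and Btc.

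Nrg1, the neuregulin that binds ERBB3 and ERBB4, measured 5.84, 5.95, 5.66 and 5.90 in ICC9, ICC10, ICC2.7 and ICC2.9. It measured 5.40 in HCC1, 5.74 in HCC4, 5.33 in HCC2.1 and 5.26 in HCC2.4. HCC4 lay above ICC2.7, and the other 3 HCC lines lay below every ICC line. The ICC mean was 1.32-fold the HCC mean (log2 difference 0.41, SE 0.12, 95% interval 0.13 to 0.68), which did not pass over all genes (adjusted p = 0.201). The mean of Nrg1 over all lines lay just below that of the median gene, with 49.6% of genes at a lower mean. Among female-labelled lines, 2 of each type, the difference was 0.60 and passed (adjusted p = 0.0445), in a fit that called 696 genes. In the male-labelled lines it was 0.21 (adjusted p = 0.616). Within a sex, type and line naming go together, so neither value belongs to type alone. Nrg1 and its receptor Erbb3 thus had differences of opposite sign, 0.41 and -0.47, neither of which was called.

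Ereg, Hbegf and Btc are ligands that bind EGFR and ERBB4, and with Egfr they had the 4 widest ranges among the ICC lines, from 1.33 to 1.89. Among the HCC lines Hbegf had a range of 0.34, narrower than those of Tgfa and Btc (0.86 each). Epgn, Ereg, Areg and Btc, in that order, are consecutive protein-coding genes on chromosome 5 in the RefSeq table of GRCm38.p6. Ereg, the gene of epiregulin, measured 10.65 in ICC9, 11.28 in ICC10, 10.57 in ICC2.7 and 9.64 in ICC2.9. In HCC lines it measured 10.54 in HCC1, 11.32 in HCC4, 9.98 in HCC2.1 and 9.82 in HCC2.4. The lowest line was ICC2.9 and the highest HCC4, closely followed by ICC10. The type means were 10.54 ± 0.68 and 10.42 ± 0.68 (SD, n = 4 each; difference 0.12, 95% interval -0.79 to 1.03, adjusted p = 0.925). A second Ereg probe set gave its lowest value in the same line, ICC2.9 (6.53), and its highest in ICC10 and HCC4 (7.92 each), but a type difference of the other sign, -0.04.

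Hbegf, the heparin-binding ligand, measured 11.52, 11.85, 11.54 and 10.52 in ICC9, ICC10, ICC2.7 and ICC2.9 and stayed between 11.17 and 11.51 in the HCC lines. ICC2.9 lay far below the rest and ICC10 above them, so the ICC spread (SD 0.58) was wider than that of HCC (SD 0.16). The difference between type means was 0.05 (95% interval -0.53 to 0.63, adjusted p = 0.949), and it was -0.11 without ICC10 and 0.33 without ICC2.9.

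Btc, the gene of betacellulin, had the widest range of the ligands, 2.09 log2 units. It measured 8.96 in ICC9, 9.68 in ICC10, 8.21 in ICC2.7 and 7.79 in ICC2.9, and 9.88 in HCC1, 9.02 in HCC4, 9.09 in HCC2.1 and 9.03 in HCC2.4. The male ICC lines were the lowest, while HCC1 and ICC10 stood above the other 6 lines. The difference between types was -0.59 (95% interval -1.48 to 0.29, adjusted p = 0.536), and without ICC2.9 it was -0.30, without HCC1 -0.39 and without ICC10 -0.94.

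**Figure D3:**
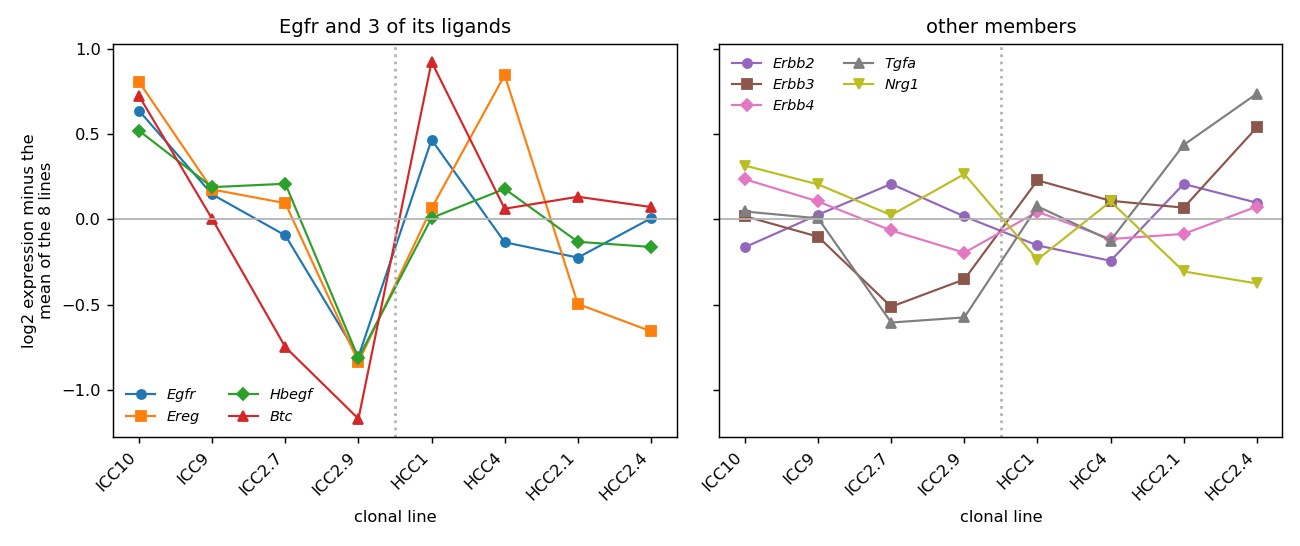
The vertical axis is log2 expression minus the gene's mean over the 8 lines, the horizontal axis gives the lines, ICC to the left and HCC to the right of the dotted line, and each coloured line joins the values of 1 gene. Egfr, Ereg, Hbegf and Btc are each lowest in ICC2.9 and high in ICC10, and they part in the HCC lines, where Btc is highest in HCC1 and Ereg in HCC4.

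ICC2.9 was the lowest line in 5 of the 9 genes (Egfr, Erbb4, Ereg, Hbegf and Btc), and it was the lowest in 16.1% of all genes. ICC10 was the highest in 4 (Egfr, Erbb4, Hbegf and Nrg1), and in 14.5% of all genes. These counts describe lines and were not tested. Among the members the profile nearest to that of Egfr was Hbegf, with a root mean square difference of 0.24 log2 units over the 8 lines after each gene was centred, and the one nearest to Btc was Egfr (0.35). Over all genes the nearest to Egfr were Mcpt1, a mast cell protease (0.09), Cd82, a tetraspanin (0.13), and Notum, a secreted inhibitor of Wnt ligands (0.13). Mcpt1 lay between 2.98 and 4.37, near the bottom of the scale. The nearest to Btc were Plek2, a pleckstrin (0.14), Prss12, a serine protease (0.16), and Il17rd, a membrane protein that restrains FGF and RAS signalling (0.18). The lines share 1 missing direction and fall into pairs of one type and sex, so these are descriptions over fewer than 8 independent points.

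Promoter windows of 250 bases before the start were found for 6 of the 10 genes in RefSeq's table of GRCm38.p6, and those of Egfr and Btc are shown because, of the other members, Egfr had the profile nearest to that of Btc, though Hbegf and Erbb4 lay nearer to Egfr than Btc did. Both are written 5′ to 3′ on the gene's strand, and capitals mark a GC box, searched as GGGCGG on both strands. The Egfr window is chr11:16751953-16752202 on the plus strand and the Btc window chr5:91402995-91403244 on the minus strand.
Egfr: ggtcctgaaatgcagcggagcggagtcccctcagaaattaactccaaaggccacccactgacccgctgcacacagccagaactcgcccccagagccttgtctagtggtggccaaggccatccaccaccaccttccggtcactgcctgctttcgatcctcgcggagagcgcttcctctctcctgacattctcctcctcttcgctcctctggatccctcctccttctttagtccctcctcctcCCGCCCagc
Btc: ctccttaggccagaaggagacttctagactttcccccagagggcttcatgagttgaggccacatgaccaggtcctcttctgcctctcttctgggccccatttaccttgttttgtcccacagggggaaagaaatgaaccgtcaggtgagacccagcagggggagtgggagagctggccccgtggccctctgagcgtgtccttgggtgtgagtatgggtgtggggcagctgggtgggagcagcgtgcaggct
The Egfr window held 1 GC box and the Btc window 0, and 32.7% of the 32851 windows in the table held at least 1. The letters of an E-box bound by MYC and MAX (CACGTG, found in 6.02% of windows) and of an AP-1 site (TGANTCA, 6.75%), searched on both strands, occurred in none of the 6 windows, those of Egfr, Erbb2, Erbb4, Areg, Tgfa and Btc. The Tgfa window overlaps the span annotated for that gene in the RefSeq table, so part of it lies inside the gene. A match is a description of letters, and no match says only that they are not in this window.

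The difference between types was set against sex with an interaction term, the ICC minus HCC difference in female-labelled lines minus that in male-labelled lines. Limma called no gene of 22180 (0%), and 4467 genes (20.1%) had an unadjusted p under 0.05, among them 4 of the 9 members. Ereg differed by 1.06 in female-labelled and by -0.82 in male-labelled lines (interaction 1.89, SE 0.52, 95% interval 0.66 to 3.12, adjusted p = 0.130). Btc differed by 0.26 and -1.45 (interaction 1.71, SE 0.46, adjusted p = 0.127), Egfr by 0.50 and -0.61 (1.11, SE 0.42, adjusted p = 0.203) and Erbb2 by -0.22 and 0.31 (-0.53, SE 0.17, adjusted p = 0.163). For Hbegf the differences were 0.50 and -0.40 (adjusted p = 0.287). The same contrast separates the lines named with a leading 2 and a point (ICC2.7, ICC2.9, HCC2.1 and HCC2.4) from the other 4, and these cannot be told apart. Cd68, a lysosomal gene of macrophages and other cells, had an interaction of 2.82. Of the 5 fibroblast markers 4 had a negative one, Pdgfrb (-2.96), Col1a1 (-1.84), Lum (-0.61) and Col1a2 (-0.40), and Dcn had 0.17. The hepatocyte factor Hnf4a had -1.40, and the other hepatocyte markers ran from -0.83 (Serpina1c) to 0.385 (Apoa1). The epithelial cadherin Cdh1 had -1.69, while the epithelial keratins Krt8 and Krt18 had 0.105 and 0.735. The measured bile duct markers ran from -0.105 (Sox9) to 0.735 (Epcam), and none of these markers was called. The other leukocyte markers Ptprc and Adgre1 had interactions of 0.23 and -0.19. The 3 leukocyte markers summed to 14.64 to 17.82 in ICC and 16.72 to 17.47 in HCC lines, and the 5 fibroblast markers to 26.16 to 33.93 and 26.23 to 27.71. The part of these genes in the ErbB values was not tested.

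The rest of the pathway was read from a list of 56 genes, of which 52 were measured. Limma called 0 of the 52 between types in either direction, where it called 0.261% of all genes. An unadjusted p under 0.05 was reached by 5 (9.62%, against 14.1% of all genes), 2 higher and 3 lower in ICC. These 5 were Epgn, Adam12, Furin, Shc1 and Eps15. The median difference over the 52 was 0.04. The types did not overlap in 2 of the 52 (3.85%, against 8.63% of all genes), Epgn and Epn1, the endocytic adaptor epsin; Epn1, which is named for this count after its values were seen, measured 8.93 to 9.03 in ICC and 9.06 to 9.24 in HCC lines. Between the sexes 0 of the 52 were called, against 2.94% of all genes, and 13 (25%) had an unadjusted p under 0.05, against 17.5%. For the interaction 0 were called, against 0% of all genes, and 15 (28.8%) had such a p, against 20.1%.

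Among the 5 other ligands, Epgn, the gene of epigen, measured 4.29 to 4.43 in ICC and 4.55 to 4.72 in HCC lines, without overlap (difference -0.27, SE 0.08, adjusted p = 0.190). It lay low on the scale. Nrg2 differed by 0.24 (adjusted p = 0.396) with overlapping types. Of 8 genes that release or mature ligands, 6 had a negative difference and 2 a positive one, where 50.2% of all genes had a positive one. The positive count was 3 of 8 in female-labelled and 1 of 8 in male-labelled lines. The proprotein convertase Furin measured 10.19 to 10.28 in ICC and 10.26 to 10.67 in HCC lines (-0.28, adjusted p = 0.295), and the metalloprotease Adam12 differed by -0.49 (adjusted p = 0.352). Among female-labelled lines Adam12 differed by -0.79 and passed (adjusted p = 0.0356), and among male-labelled lines it differed by -0.18 (adjusted p = 0.822). Here too type and line naming go together within a sex.

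Of 19 measured adaptors and effectors 11 had a positive difference, 12 in male-labelled and 6 in female-labelled lines. Shc1, an adaptor that binds phosphorylated receptors, measured 10.06 to 10.36 in ICC and 9.47 to 10.08 in HCC lines (0.40, SE 0.14, adjusted p = 0.268), and the kinase Akt2 differed by 0.15 (adjusted p = 0.495). Of 11 measured genes that restrain the receptors 10 had a positive difference, where 50.2% of all genes did, with a median of 0.20, and 0 reached an unadjusted p under 0.05. The count was 10 of 11 in male-labelled lines and 4 of 11 in female-labelled lines. Errfi1, a feedback inhibitor of EGFR, measured 11.04, 11.05, 10.81 and 10.51 in the ICC lines and 10.45, 9.86, 10.66 and 10.65 in the HCC lines (0.45, SE 0.20, adjusted p = 0.357). ICC2.9, the line with the lowest Egfr, had the lowest Errfi1 of the ICC lines, and it lay below HCC2.1 and HCC2.4. Without HCC4 the Errfi1 difference was 0.27. The phosphatase Ptprj differed by 0.31 (adjusted p = 0.406).

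Of 7 genes of receptor traffic 6 had a positive difference, 6 in male-labelled and 2 in female-labelled lines. Eps15, an endocytic adaptor, measured 10.03 to 10.33 in ICC and 9.52 to 10.05 in HCC lines (0.46, SE 0.15, adjusted p = 0.231). Its difference was 0.12 in female-labelled and 0.79 in male-labelled lines, where HCC1 and HCC4 measured 9.52 and 9.54. Eps8, an EGFR substrate, differed by 0.31 (adjusted p = 0.414), or by 0.17 without HCC4. Cd9, a tetraspanin that binds the HBEGF precursor, measured 10.67 in ICC9, 11.36 in ICC10, 9.22 in ICC2.7 and 9.32 in ICC2.9, and 10.89 to 11.22 in HCC lines. The male ICC lines stood well below the other 6, as they did for Btc. The difference of -0.90 did not pass over all 8 lines (SE 0.44, adjusted p = 0.402), and in the male-labelled lines it was -1.79 and passed (adjusted p = 0.0233), while in the female-labelled lines it was -0.01 (adjusted p = 0.981). It was -0.50 with the mean of its probe sets and -0.59 without ICC2.7. Within a sex the Cd9 difference cannot be told apart from one between the name series. Cd44, a surface protein that can carry HBEGF, differed by -0.17 (adjusted p = 0.701), with values from -0.30 to -0.07 when single lines were left out.

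**Figure D4:**
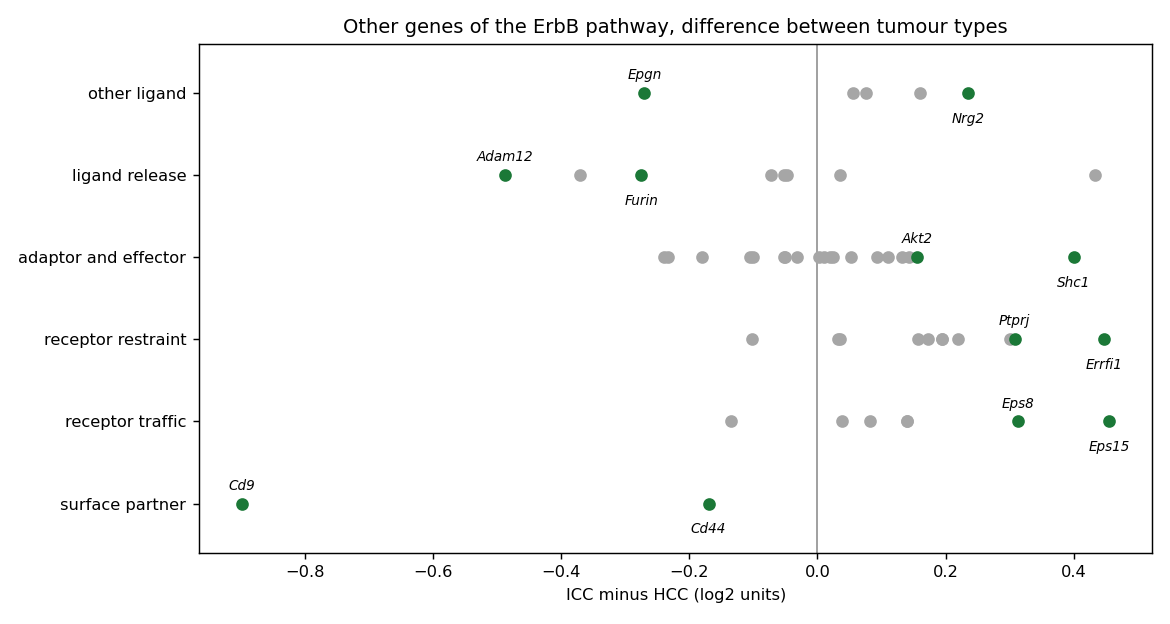
Each point is 1 of the 52 measured pathway genes, placed by its ICC minus HCC difference in log2 units and grouped by role; green points are the 2 genes of each role with the smallest p, which carry their names. No point passed the test over all genes, and the genes that restrain the receptors lie to the right of 0 in 10 of 11 cases over all lines, a count that was 4 of 11 in female-labelled lines.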

How the data were processed

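RNA (100 ng per line) from 8 mouse lines was prepared with the WT PLUS kit for Affymetrix arrays. The deposited log2 values were made by the authors with RMA in the oligo package, per the submitters' processing notes, with versions and annotation build not given in the sources used here. Of 39993 probe sets 23521 name exactly 1 gene, which gave 22180 genes by the highest mean; only Ereg among the members had more than 1. All 9 measured members carried the same symbol in the RefSeq table by identifier. Dim probe sets were kept.

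All genes were fitted with limma 3.58.1 in R 4.3.3 (lmFit, eBayes, two-sided, Benjamini-Hochberg over all genes, threshold 0.05): type alone, sex with type in the model, and their interaction. Values after ± are SDs over lines; SE and intervals are limma's. The fit was tested on simulated data with independent noise in every line. Those data had neither the missing direction nor pairs of related lines, so the test cannot speak to either. The members, pathway and marker lists, tests and alternatives were chosen with earlier results of these data known. Named are all members, called pathway genes, the 2 pathway genes per role with the smallest p, and, for the receptor and the ligand with the widest range, the 3 genes with the nearest profile, leaving out predicted, RIKEN, small RNA and pseudogene symbols. The sex-linked genes, and the markers singled out by name, were chosen after their values were seen. Alternatives were other covariates, a random block, one sex or one type, each line left out, a filter on dim genes, quantile normalization, median centring, the mean of probe sets, and eBayes with trend and robust settings. Figures used Python 3.11.15 and matplotlib 3.10.9.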

Additional observations from a re-analysis of the deposited data

Results flagged for a closer look

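Within each type the values of the 4 lines were compared with Dixon's criterion for the 9 members and the 12 named pathway genes, 42 sets of 4 values, of which chance flags about 1 in 20. There were 2 such values. Btc in HCC1 measured 9.88, against 9.02 to 9.09 in the other HCC lines. Eps15 in ICC10 measured 10.03, against 10.28 to 10.33 in the other ICC lines.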

How the results depend on the processing

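Of 395 values for ICC minus HCC in the 21 named genes under the alternatives, 373 kept their direction and side of the threshold, as did 108 of 123 for sex and 92 of 96 for the interaction. None of the 21 was called in the main fit between types, and no gene for the interaction. A kept side of the threshold therefore says little about how stable these values are. The called genes between types numbered 58 in the main fit and 428 with sex in the model. They numbered 12 with the missing direction, 119 with both and 6 with a random block. The number was 696 in female-labelled and 200 in male-labelled lines, 103 among genes above the median level and 2 to 109 without single lines. It was 2 without ICC9, 4 without HCC2.1, 5 without HCC2.4 and 109 without HCC1. Of the members 1 was called with sex in the model (Tgfa -0.56) and 1 in female-labelled lines (Nrg1 0.60), where Adam12 (-0.79) was called too; Cd9 (-1.79) was called in male-labelled lines. Signs turned in female-labelled lines for Egfr (0.50), Erbb2 (-0.22), Btc (0.26) and Cd44 (0.17), and in male-labelled lines for Erbb4 (-0.10), Ereg (-0.82) and Hbegf (-0.40). Without single lines ICC minus HCC ran from -0.28 to 0.20 for Egfr, -0.028 to 0.12 for Erbb2, -0.032 to 0.11 for Erbb4, -0.13 to 0.42 for Ereg and -0.11 to 0.33 for Hbegf.

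The called genes between sexes numbered 653, and 280 with the missing direction, 334 with a random block, 1098 in ICC, 91 in HCC and 146 to 917 without single lines. Tgfa (0.61 in each) was not called with the missing direction or in HCC lines, which left 0 members; without single lines 0 to 1 was called and Tgfa ran from 0.55 to 0.67. Female minus male turned sign in ICC lines for Erbb2 (-0.18), Ereg (0.86) and Nrg1 (0.12), in HCC lines for Egfr (-0.28), Hbegf (-0.24) and Btc (-0.39), and without single lines for Hbegf (-0.086 to 0.33), Ereg (-0.46 to 0.26) and Nrg1 (-0.17 to 0.027). The interaction called 0 genes, 255 with the missing direction and 0 to 238 without single lines; that of Tgfa ran from -0.15 to 0.15. The causes were not tested. Signal over background was not assessed.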
